A study of Mus musculus with 24 samples.

Results

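The comparison is the difference between 2 IL-1b responses, that of neurons given AcP minus that of neurons given CD25, across all probe sets of the array. A probe set is a group of short probes for 1 transcript, and its brightness, the intensity, is the measurement. All 45037 of 45077 probe sets that are not manufacturer's controls were taken, on the 12 of 24 arrays that belong to the AcP and CD25 arms. The difference for a probe set is the log2 change with IL-1b in AcP cultures minus the log2 change with IL-1b in CD25 cultures.

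The cells of every group were embryonic cortical neurons of Il1rap-/- mice, which lack the gene of the IL-1 receptor accessory protein, cultured without serum. The 4 groups, with 3 arrays each, were AcP IL-1b, AcP control, CD25 IL-1b and CD25 control. AcP cultures were made to express the accessory protein, and CD25 cultures CD25, a chain of the IL-2 receptor with no part in IL-1 signalling. IL-1b was used at 10 ng/ml, and both the IL-1b and the control stimulus lasted 4 h before RNA was taken. The labels do not name the vector or promoter, or the share of cells that expressed the introduced protein. Whether replicate arrays came from separate cultures is not stated either, and p-values here therefore measure the spread between these 12 samples alone, some or all of which may be technical.

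Interleukin-1 beta binds the IL-1 receptor Il1r1, which signals only once the accessory protein AcP has joined it. The joined chains recruit Myd88 and the Irak kinases, and the signal ends in NF-kB and MAP kinases. In brain tissue NF-kB is known to induce chemokines, acute phase proteins and its own inhibitors, the IkB proteins.

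Array medians lay between 55.0 and 66.4 intensity units, the share of values below 0 was 16.4% to 17.7% per array, and pairs of arrays correlated at 0.965 to 0.988. AcP control 3 correlated more closely with AcP IL-1b (mean r 0.9848) and the CD25 controls (mean r 0.9838) than with the other AcP controls (mean r 0.9781). AcP controls 1 and 2 also correlated more closely with AcP IL-1b (mean r 0.981 and 0.9779) than with their own group (0.9788 and 0.9759). The same held in the other arm. CD25 IL-1b arrays 1, 2 and 3 correlated more closely with the CD25 controls (mean r 0.9861, 0.9853 and 0.9852) than with their own group (0.9842, 0.9851 and 0.9839). The median SD of a probe set within the group was 0.191 log2 units in AcP controls, against 0.112 to 0.139 in the other groups. All 12 arrays carry the same code in their labels, whose meaning is not given, and no scan date or slide is stated. Il1rap had 141, 117 and 143 units in AcP IL-1b and 137, 138 and 132 in AcP controls, against 115, 124 and 139 in CD25 IL-1b and 123, 120 and 124 in CD25 controls. Where the probes lie relative to the deleted or the introduced sequence is not known here, so this level checks no label. The 17 neuron markers on the array averaged 11.48 to 11.52 log2 units in AcP IL-1b and 11.43 to 11.54 in AcP controls, against 11.31 to 11.46 in CD25 IL-1b and 11.38 to 11.44 in CD25 controls. Between the AcP and CD25 controls 0 of these markers were called, and their median resting difference was 0.05 log2 units. Among them Tubb3, a neuronal tubulin, averaged 4819 units in AcP controls and 4238 in CD25 controls (limma adjusted p = 0.3). Nefl went the other way, at 2122 in AcP controls and 2225 in CD25 controls.

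The response to IL-1b was higher in AcP than in CD25 cultures for 27 genes, among them chemokines, NF-kB inhibitors, acute phase proteins, interferon-inducible GTPases and immediate early genes. By limma, 36 of 45037 probe sets were called at a Benjamini-Hochberg adjusted p under 0.05. Of these, 35 had a higher response in AcP (0.0777% of all tested) and 1 a lower response (0.00222%). The 35 stood for 27 genes and for 1450173_at, a probe set that the table does not pair with a single gene. Their differences ran from 0.45 to 7.47 log2 units with a median of 2.55, and 31 were at least 2-fold. Without AcP control 3 the count was 180, with 101 higher and 79 lower and with all 36 among them, and it was 23 without either CD25 IL-1b array 2 or array 3.

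The AcP arm held the called responses. Of the 35 probe sets, 34 also rose in AcP cultures alone, where limma called 56 probe sets higher (0.124%) and 6 lower (0.0133%), together 62, and 221 without AcP control 3. Pard6b, a cell polarity gene, was the exception, with an AcP response of 0.45 ± 0.07 log2 units (limma adjusted p = 0.092). The AcP responses of the 35 had a median of 2.26 log2 units. In CD25 cultures limma called 0 probe sets in either direction, with 2056 at an unadjusted p under 0.05. It called 13 there when CD25 control 2 was left out. The CD25 responses of the 35 probe sets ran from -0.89 to 0.22 with a median of -0.14.

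**Figure D1:**
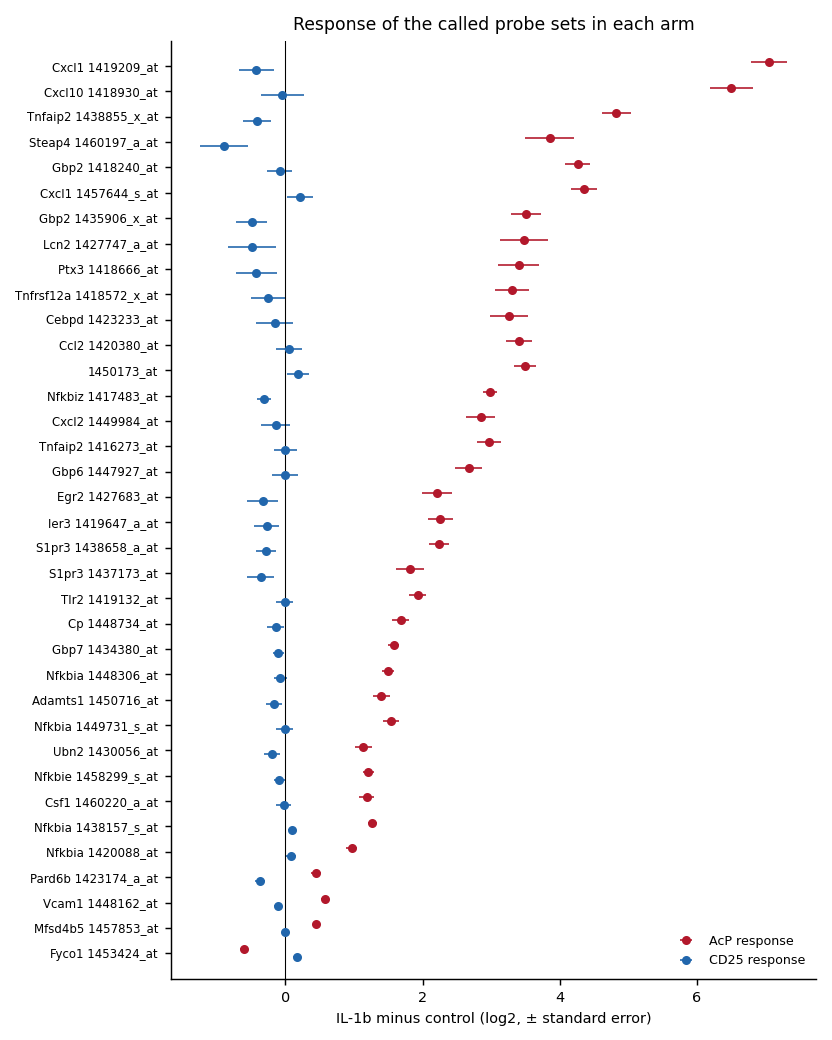
Change with IL-1b (log2 units, horizontal axis) of the 36 called probe sets in AcP cultures (red) and in CD25 cultures (blue), with bars for limma's standard errors. The AcP responses of the upper 35 rows lie to the right of their CD25 responses, which run from -0.89 to 0.22, and Fyco1 in the lowest row has the AcP point on the left.

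The 2 genes with the largest differences were chemokines. Cxcl1, which attracts neutrophils, had 1942, 2488 and 1938 intensity units in AcP IL-1b and -13.4, -24.0 and -1.96 in AcP controls on probe set 1419209_at, against 10.4, 18.1 and 35.1 in CD25 IL-1b and 19.1, 43.7 and 36.1 in CD25 controls. All AcP IL-1b arrays were far above the others, and the AcP controls were at background. The difference was 7.47 ± 0.37 log2 units (± standard error throughout for log2 values, limma adjusted p = 0.0003). The size depends on the 16 units added before the log, since the AcP controls lay below 0. A brighter Cxcl1 probe set, 1457644_s_at, had 3118, 4005 and 3263 in AcP IL-1b and 156, 146 and 160 in AcP controls, against 172, 233 and 323 in CD25 IL-1b and 187, 202 and 212 in CD25 controls. Its difference was 4.13 ± 0.27 (limma adjusted p = 0.0012), and a further one, 1441855_x_at, was not called at 1.90 ± 0.27 (limma adjusted p = 0.074).

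Cxcl10, a ligand of the chemokine receptor Cxcr3, had 2348, 2831 and 2356 units in AcP IL-1b and -2.38, 13.7 and 29.2 in AcP controls, against 201, 196 and 178 in CD25 IL-1b and 227, 175 and 193 in CD25 controls. The 6 CD25 arrays lay together, the AcP controls below all of them and the AcP IL-1b arrays above all of them. The difference of 6.54 ± 0.44 (limma adjusted p = 0.0013) was made up of a stimulated difference between the arms of 3.60 ± 0.31 and a resting difference of -2.94 ± 0.31. AcP IL-1b cultures averaged 12.6 times the CD25 control level. Ccl2, which attracts monocytes, differed from Cxcl10 at rest. It had 761, 986 and 646 units in AcP IL-1b and 71.5, 62.9 and 46.5 in AcP controls, against 55.9, 74.6 and 79.1 in CD25 IL-1b and 55.7, 74.0 and 67.9 in CD25 controls. The resting arms overlapped (resting difference -0.11 ± 0.19, limma adjusted p = 0.88), and the response difference was 3.34 ± 0.27 (limma adjusted p = 0.0029). Cxcl2, a close relative of Cxcl1, averaged 193 units in AcP IL-1b and 13.2 in AcP controls, against 12.9 in CD25 IL-1b and 15.9 in CD25 controls, and its difference was 2.98 ± 0.30 (limma adjusted p = 0.011). Of 27 chemokine genes on the array these 4 were called higher and 0 lower, beside 0.148% and 0.0055% of all 18193 genes. The median difference over the 27 was 0.00, as over all genes, and Ccl3, Ccl5, Ccl11, Ccl12, Ccl20 and Ccl22 averaged at or below 0 in CD25 controls.

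The start of each gene was searched for the NF-kB binding motif, the kappaB consensus, on both strands of the window from 250 bases before to 50 bases after the start site (RefSeq, build GRCm38.p6). Of the 27 genes with a higher response 22 had a window, and 11 of these (50.0%) held a match, against 6.07% of the 14452 genes on the array with a window. The 11 were Csf1, Cxcl1, Cxcl10, Cxcl2, Ier3, Nfkbia, Nfkbie, Pard6b, Ptx3, Steap4 and Tlr2. A match is a run of letters and does not show that the factor binds there. The 160 bases before the start sites of 4 of these genes are shown for the matches, which are in capitals, and those of S1pr3 as a gene whose window held none. They lie at chr5:92348890-92349049 on the minus strand for Cxcl10, chr5:90891085-90891244 on the plus strand for Cxcl1, chr5:90903739-90903898 on the plus strand for Cxcl2, chr12:55492648-55492807 on the minus strand for Nfkbia and chr13:51408458-51408617 on the plus strand for S1pr3.
Cxcl10: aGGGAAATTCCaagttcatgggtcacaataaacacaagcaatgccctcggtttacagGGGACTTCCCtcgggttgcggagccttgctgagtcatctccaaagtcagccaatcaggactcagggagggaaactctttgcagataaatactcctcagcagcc
Cxcl1: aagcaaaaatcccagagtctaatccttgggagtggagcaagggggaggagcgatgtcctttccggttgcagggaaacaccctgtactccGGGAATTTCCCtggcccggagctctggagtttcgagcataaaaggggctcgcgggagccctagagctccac
Cxcl2: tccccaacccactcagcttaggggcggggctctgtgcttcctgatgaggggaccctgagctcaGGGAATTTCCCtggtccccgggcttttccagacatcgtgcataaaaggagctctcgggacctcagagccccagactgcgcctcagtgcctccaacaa
Nfkbia: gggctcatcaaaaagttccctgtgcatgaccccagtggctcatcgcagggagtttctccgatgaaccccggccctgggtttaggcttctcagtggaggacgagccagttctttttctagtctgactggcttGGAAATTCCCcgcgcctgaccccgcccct
S1pr3: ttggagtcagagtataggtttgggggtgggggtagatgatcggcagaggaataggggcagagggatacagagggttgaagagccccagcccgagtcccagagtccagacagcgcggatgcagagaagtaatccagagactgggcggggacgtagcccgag
In Cxcl10 the matches begin 159 and 103 bases before the start site. In Cxcl1 and Cxcl2 the capitals hold 2 overlapping matches, 1 on each strand, which begin 71 and 97 bases before the start site on the plus strand. A motif known from interferon-induced genes, GAAA followed by 2 bases of any kind and by GAAA again, was searched for on both strands and found in 3 of the 22 windows (13.6%), those of Cxcl10, Gbp2 and Gbp7, against 3.63% of genes on the array.

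Of 22 NF-kB subunits and feedback genes on the array 4 were called, all higher (beside 0.148% of all genes), and the list's median difference was 0.47. Nfkbiz, a nuclear IkB protein that takes part in inducing acute phase genes, had 499, 653 and 516 units in AcP IL-1b and 55.2, 59.5 and 54.1 in AcP controls, against 71.8, 68.6 and 82.8 in CD25 IL-1b and 92.8, 93.2 and 102 in CD25 controls. The AcP IL-1b arrays were above all others and the AcP controls below all others. The difference was 3.29 ± 0.14 (limma adjusted p = 0.0002). Its dimmer probe set 1448728_a_at gave 1.42 ± 0.53 and was not called (limma adjusted p = 0.76). Nfkbia, the IkB protein that holds NF-kB in the cytoplasm, was called on 4 of its 5 probe sets, with differences of 0.89 to 1.57. On the brightest it averaged 5206 ± 553 units in AcP IL-1b and 2642 ± 159 in AcP controls, against 3134 ± 14.1 in CD25 IL-1b and 2963 ± 166 in CD25 controls (SD, n = 3 each). Nfkbie, a related inhibitor, had 90.9, 95.3 and 83.3 units in AcP IL-1b, and its other 9 arrays lay between 27.4 and 39.2. Its difference was 1.30 ± 0.12 (limma adjusted p = 0.007), with a further probe set not called at 1.01 ± 0.35. Tnfaip2, a gene that TNF is known to induce, averaged 693 units in AcP IL-1b and 8.85 in AcP controls, against 72.1 in CD25 IL-1b and 97.9 in CD25 controls on probe set 1438855_x_at. The difference there was 5.23 ± 0.30 (limma adjusted p = 0.00063), and it was 2.97 ± 0.24 on 1416273_at, where all 9 other arrays lay below 0. Those 9 were set to 0, so the standard error on 1416273_at holds no spread between them. The third Tnfaip2 probe set, 1457918_at, averaged 52.2 units in AcP IL-1b and 57.6 in AcP controls, against 36.6 in CD25 IL-1b and 40.1 in CD25 controls, and was not called (0.04 ± 0.65, limma adjusted p = 1.0).

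Acute phase and defence genes were called for 5 of 21 members on the array, all higher (beside 0.148% of all genes), with a median difference of 0.38. Lcn2, a carrier of bacterial iron chelators, had 544, 832 and 491 units in AcP IL-1b and 15.5, 73.5 and 45.4 in AcP controls, against 150, 121 and 113 in CD25 IL-1b and 195, 158 and 203 in CD25 controls. Its groups lay in 3 tiers without overlap, AcP controls lowest, both CD25 groups between and AcP IL-1b highest. The difference was 3.96 ± 0.50 (limma adjusted p = 0.043). Ptx3, a pentraxin of innate immunity, had 884, 1334 and 751 units in AcP IL-1b and 64.2, 75.3 and 92.4 in AcP controls, against 190, 180 and 368 in CD25 IL-1b and 268, 360 and 333 in CD25 controls. It showed the same 3 tiers, with a difference of 3.82 ± 0.42 (limma adjusted p = 0.017). Steap4, a metalloreductase, averaged 221 units in AcP IL-1b and -102 in AcP controls, against -17.4 in CD25 IL-1b and 13.9 in CD25 controls (4.75 ± 0.50, limma adjusted p = 0.014), with a further probe set not called at 2.63 ± 0.57. The AcP controls of the called probe set all lay below 0 and were set to 0. The size of its difference depends on the floor, at 2.45 to 7.59 across 23 alternative settings, with the call lost in 4. Tlr2, a receptor for bacterial lipoproteins, had 205, 242 and 206 units in AcP IL-1b, and its other 9 arrays lay between 36.5 and 57.8. Its difference was 1.94 ± 0.16 (limma adjusted p = 0.0041). Cp, the copper oxidase ceruloplasmin, is the fifth.

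Guanylate-binding proteins, GTPases that interferons are known to induce, stood for all 3 of the 28 interferon-linked genes called, all higher (beside 0.148% of all genes), and the list's median difference was 0.21. Gbp2 had 335, 416 and 291 units in AcP IL-1b and 1.35, 7.80 and -14.7 in AcP controls, against 71.2, 62.9 and 66.2 in CD25 IL-1b and 73.8, 58.4 and 83.8 in CD25 controls. As for Lcn2, the CD25 groups lay between the AcP groups. The difference was 4.34 ± 0.25 (limma adjusted p = 0.00063), and it was 4.00 ± 0.31 on a second probe set. Gbp6 averaged 89.5 units in AcP IL-1b, and its 9 other arrays lay below 0 (2.67 ± 0.27, limma adjusted p = 0.011). Those 9 were all set to 0, so this standard error and p-value hold no spread between them. The call was lost in 5 of 23 alternative settings, with limma adjusted p up to 0.57. On its other probe set the difference was 1.38 ± 0.32 and not called (limma adjusted p = 0.45). Irf1, a transcription factor of the interferon response, had 286, 302 and 293 units in AcP IL-1b and 73.9, 69.2 and 108 in AcP controls, against 152, 295 and 305 in CD25 IL-1b and 181, 309 and 273 in CD25 controls. Its difference of 1.70 ± 0.40 was not called (limma adjusted p = 0.45, 95% interval 0.80 to 2.61).

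Immediate early genes were called for 3 of 40 members, Cebpd, Egr2 and Ier3, all higher (beside 0.148% of all genes), with a list median of 0.23. Egr2, a zinc finger transcription factor, had 330, 427 and 325 units in AcP IL-1b and 51.6, 58.2 and 88.0 in AcP controls, against 66.6, 60.5 and 90.4 in CD25 IL-1b and 111, 109 and 68.6 in CD25 controls. The AcP IL-1b arrays stood apart and the other groups overlapped (2.55 ± 0.32, limma adjusted p = 0.04). The Egr2 call was lost in 13 of 23 alternative settings. Ier3, an early gene linked to cell survival, averaged 307 in AcP IL-1b and 49.6 in AcP controls, against 110 in CD25 IL-1b and 137 in CD25 controls (2.54 ± 0.26, limma adjusted p = 0.013). Csf1, the growth factor of macrophages and microglia, was the 1 called gene of 23 cytokines and growth factors on the array, higher as were 0.148% of all genes. It had 486, 488 and 482 units in AcP IL-1b and 195, 245 and 177 in AcP controls, against 326, 331 and 330 in CD25 IL-1b and 332, 298 and 382 in CD25 controls (1.21 ± 0.16, limma adjusted p = 0.045). Il6 averaged 16.4 units in AcP IL-1b and 2.06 in AcP controls, against 4.21 in CD25 IL-1b and 5.74 in CD25 controls, and was not called (0.91 ± 0.23, limma adjusted p = 0.5). The transcription factor Atf3 was not called at 2.47 ± 0.36 (limma adjusted p = 0.093).

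**Figure D2:**
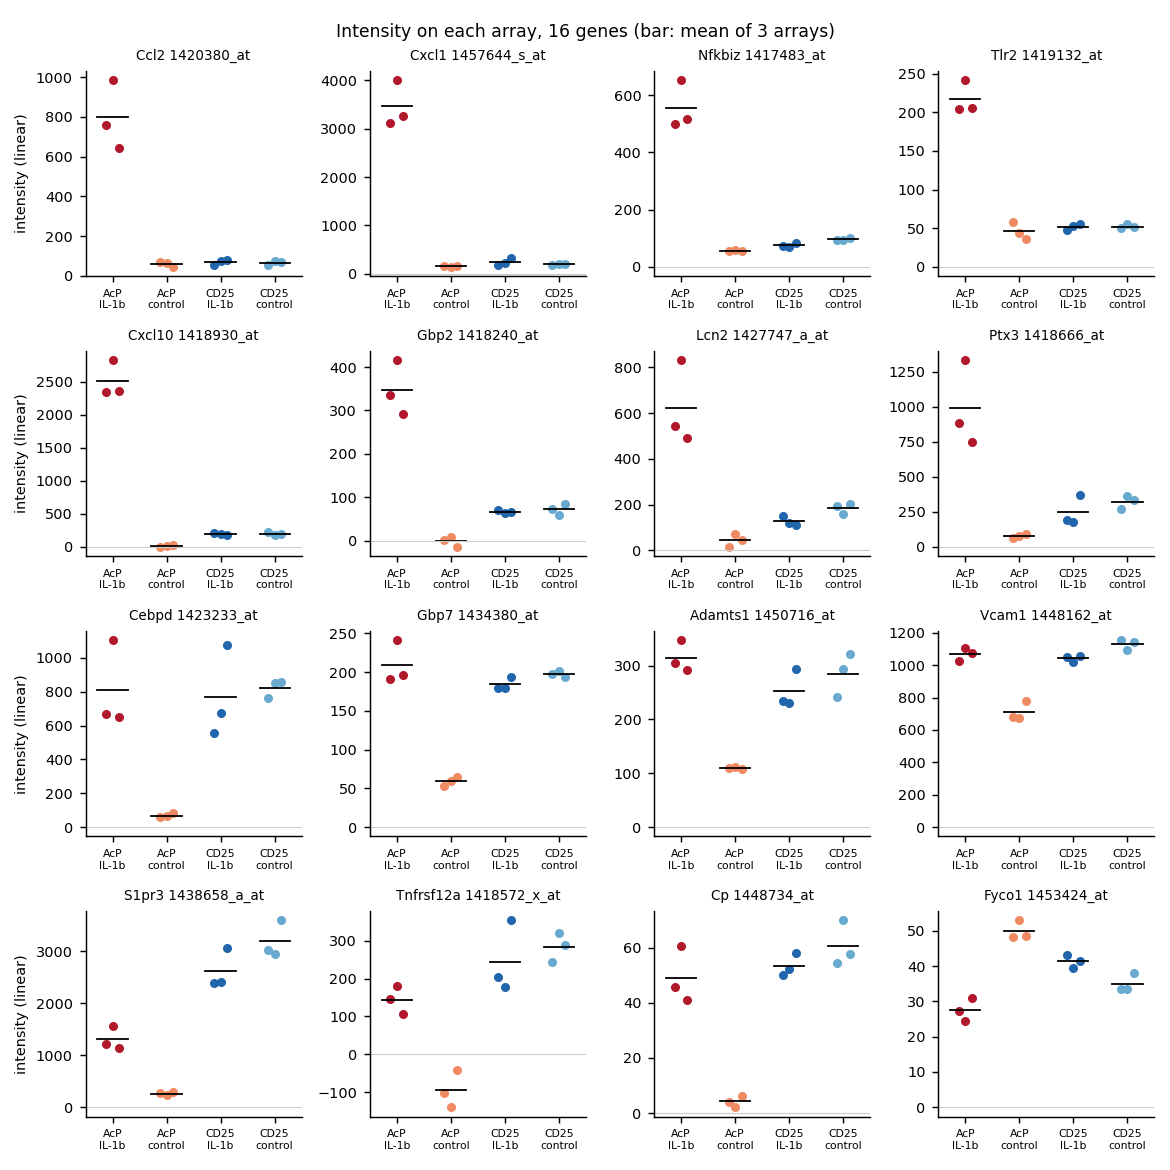
Intensity (linear, 1 point an array, bar at the mean of 3) of 16 called probe sets in AcP IL-1b, AcP control, CD25 IL-1b and CD25 control cultures, from left to right in each panel. In the top row the resting arrays of the arms overlap for Ccl2 and Tlr2, and the AcP controls lie below all CD25 controls for Cxcl1 and Nfkbiz. In the second row the AcP controls lie below both CD25 groups and AcP IL-1b above them. In the third row AcP IL-1b overlaps the CD25 arrays, and in the lowest row S1pr3 stays below them.

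The resting level set the genes apart. By construction the response difference equals the stimulated difference, AcP IL-1b minus CD25 IL-1b, minus the resting difference, AcP control minus CD25 control, so a low AcP control raises it as much as a high AcP IL-1b level does. The counts that follow therefore describe the same arrays and are no separate evidence. Of the 35 probe sets with a higher response, 24 were called lower in AcP than in CD25 controls (2.24% of all probe sets were), 0 were called higher (1.27%) and 11 were not called. With array medians centred, 210 probe sets were called higher and 750 lower at rest in place of 571 and 1010. The 1581 resting calls became 3344 without AcP control 3, and 979, 942 and 760 without CD25 control 1, 2 or 3. In 29 of the 35 the AcP control arrays lay below all CD25 control arrays, beside 10.9% of all probe sets. After IL-1b, 25 of the 35 were called higher in AcP than in CD25 cultures (1.02% of all), 2 were called lower (1.43%) and 8 were not called. The 1104 stimulated calls became 474 to 595 without CD25 IL-1b array 2 or 3 or without any 1 of the AcP IL-1b arrays. The AcP IL-1b arrays lay above all 6 CD25 arrays in 25 (7.67% of all probe sets) and below all 6 in 2 (7.52%).

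In 11 of the 25 the resting arms were not called apart. They were the probe sets of Ccl2, Cxcl2, Steap4, Tlr2, Egr2, Nfkbie, Gbp6 and Mfsd4b5 and 1 each of Cxcl1, Nfkbia and Tnfaip2. The resting arrays of the arms overlapped in 6 of the 11. In the other 5, those of Steap4, Gbp6, Cxcl1, Nfkbia and Tnfaip2, the AcP control arrays lay below all CD25 control arrays although the difference was not called. For Gbp6 and Tnfaip2 every control array of both arms lay below 0 and was set to 0. A resting call was therefore not possible for them, and their order at rest is one of values at background. Mfsd4b5 had 4.54, 6.57 and 6.89 units in AcP IL-1b and averaged below 0 in the other 3 groups, so its difference of 0.45 ± 0.05 rests on values at background. In the other 14 of the 25 the AcP controls were lower and AcP IL-1b higher than CD25, as for Cxcl10, Gbp2, Lcn2, Ptx3, Ier3, Csf1 and Nfkbiz. Resting Nfkbia was lower by less, with resting differences of -0.67 to -0.34 on its 3 probe sets in that group. The probe set without a single gene name, 1450173_at, had 160, 229 and 173 units in AcP IL-1b and 6.03, -10.3 and 0.32 in AcP controls, against 42.0, 36.8 and 39.7 in CD25 IL-1b and 39.5, 27.1 and 32.5 in CD25 controls (3.30 ± 0.23, limma adjusted p = 0.0013). Further probe sets of Csf1 (3), Egr2 (1), Ptx3 (1), Mfsd4b5 (1), Gbp7 (1) and Vcam1 (2) were not called. Those of Csf1 stood at 2.58 ± 0.50, 0.74 ± 0.23 and, in the other direction, -0.68 ± 0.52. That of Egr2 stood at 1.67 ± 0.26, of Ptx3 at 0.31 ± 0.41 and of Mfsd4b5 at 0.15 ± 0.14. That of Gbp7 stood at 1.87 ± 0.40 and those of Vcam1 at 0.82 ± 0.21 and 0.98 ± 0.39.

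In 8 probe sets the AcP controls were lower than the CD25 controls, and after IL-1b the arms were not called apart. Cebpd, a transcription factor of the acute phase response, had 671, 1104 and 651 units in AcP IL-1b and 57.5, 62.6 and 84.6 in AcP controls, against 553, 674 and 1074 in CD25 IL-1b and 762, 854 and 855 in CD25 controls. The AcP controls were below all other arrays, and the other 3 groups overlapped. Its response difference of 3.42 ± 0.38 (limma adjusted p = 0.019) went with a resting difference of -3.33 ± 0.27 (limma adjusted p = 0.00076), and the 95% interval of the stimulated difference ran from -0.53 to 0.70. The other Cebpd probe set was not called (2.26 ± 0.80, limma adjusted p = 0.73). Gbp7 had 191, 241 and 196 units in AcP IL-1b and 53.4, 59.1 and 64.2 in AcP controls, against 180, 179 and 193 in CD25 IL-1b and 198, 201 and 194 in CD25 controls. Its difference was 1.68 ± 0.12 (limma adjusted p = 0.0013), with a stimulated difference of 0.16 and an interval of -0.02 to 0.35. Cp averaged 49.2 units in AcP IL-1b and 4.18 in AcP controls, against 53.4 in CD25 IL-1b and 60.7 in CD25 controls (1.83 ± 0.18, limma adjusted p = 0.01, stimulated interval -0.39 to 0.18). Its 7 other probe sets were not called.

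Vcam1, an adhesion molecule for leukocytes, had 1025, 1106 and 1073 units in AcP IL-1b and 679, 673 and 778 in AcP controls, against 1050, 1021 and 1059 in CD25 IL-1b and 1154, 1094 and 1143 in CD25 controls. Only the AcP controls stood apart on this probe set (0.70 ± 0.08, limma adjusted p = 0.018, stimulated interval -0.09 to 0.16). Adamts1, a secreted metalloproteinase, averaged 314 in AcP IL-1b and 109 in AcP controls, against 253 in CD25 IL-1b and 285 in CD25 controls (1.56 ± 0.17, limma adjusted p = 0.016, stimulated interval 0.03 to 0.57). Tnfrsf12a, the receptor of the cytokine Tweak, averaged 145 in AcP IL-1b and -93.4 in AcP controls, against 245 in CD25 IL-1b and 284 in CD25 controls (3.55 ± 0.35, limma adjusted p = 0.011). Its AcP controls all lay below 0 and were set to 0, so the standard error holds no spread between them. The size depends on the floor, at 1.90 to 5.88 across 23 alternative settings, with the call lost in 4. Its stimulated interval, -1.23 to -0.10, lay below 0 although limma's adjusted p was 0.24, and its other probe set was not called (3.03 ± 0.78). The other 2 were Ubn2, a chromatin gene, at 1.33 ± 0.17 (stimulated interval -0.05 to 0.50), and Pard6b at 0.82 ± 0.10 (stimulated interval -0.05 to 0.29), and the further probe sets of both were not called. Pard6b averaged 58.1 in AcP IL-1b and 38.1 in AcP controls, against 52.1 in CD25 IL-1b and 72.0 in CD25 controls, with a CD25 response of -0.37 ± 0.07.

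S1pr3, a receptor for the lipid sphingosine 1-phosphate, kept a lower level in AcP cultures even after its response. Probe set 1438658_a_at had 1220, 1560 and 1139 units in AcP IL-1b and 272, 232 and 285 in AcP controls, against 2399, 2415 and 3063 in CD25 IL-1b and 3030, 2958 and 3597 in CD25 controls. The 3 AcP IL-1b arrays lay between the AcP controls and all 6 CD25 arrays. The response difference was 2.52 ± 0.21 (limma adjusted p = 0.0034), beside a resting difference of -3.52 ± 0.15 and a stimulated difference of -1.0 ± 0.15 (limma adjusted p = 0.013). AcP IL-1b cultures averaged 0.409 of the CD25 control level. Probe set 1437173_at had the same order, with 350 units in AcP IL-1b and 87.3 in AcP controls, against 711 in CD25 IL-1b and 914 in CD25 controls (2.18 ± 0.28, limma adjusted p = 0.044). The third probe set of S1pr3 was not called (3.19 ± 0.60, limma adjusted p = 0.24).

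**Figure D3:**
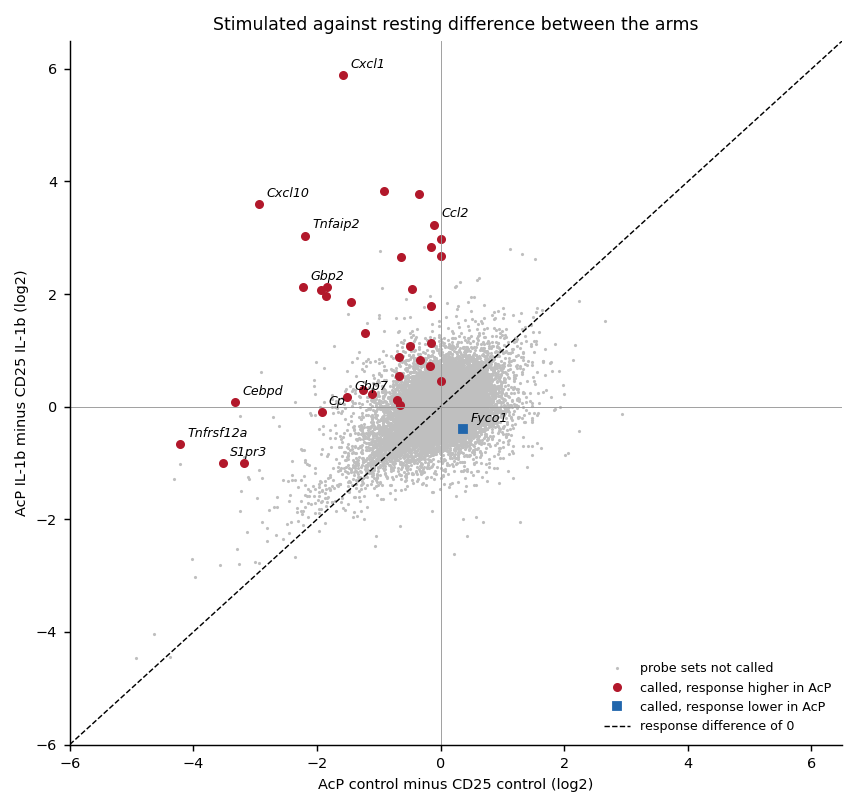
Stimulated difference (AcP IL-1b minus CD25 IL-1b, vertical) against resting difference (AcP control minus CD25 control, horizontal), both in log2 units, for all 45037 probe sets. Called probe sets are red circles (response higher in AcP, 35) or a blue square (lower, Fyco1), and the dashed line marks a response difference of 0. Ccl2 lies above the middle, Cxcl10 above and to the left, Cebpd on the left near a stimulated difference of 0.09, and S1pr3 below 0.

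Called probe sets were found at every resting level. Probe sets were put into 5 classes by their CD25 control mean, with borders at 16 and 64 units and at 2 further steps of 4-fold. That mean is itself a term of the difference, so the counts by class are a description only. The lowest class held 5 of the 35 called probe sets (0.0367% of the 13612 probe sets there), the second 5 (0.0525% of 9532), the third 13 (0.143% of 9077), the fourth 9 (0.109% of 8285) and the brightest 3 (0.0662% of 4531). The 3 in the brightest class were Vcam1, S1pr3 and Nfkbia. Over all probe sets the middle 90% of differences spanned -0.72 to 0.78 log2 units in the second class and -0.18 to 0.24 in the brightest, with medians of -0.06 and 0.02. The median standard errors in these classes were 0.33 and 0.10. Grouped by the AcP controls in place of the CD25 controls, 13 of the 35 lay in the lowest class and 1 in the brightest. The controls of the AcPb arm, described below, enter no term of the difference. Grouped by them, the classes from the lowest held 12, 10, 7, 5 and 1, without the peak in the third class.

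**Figure D4:**
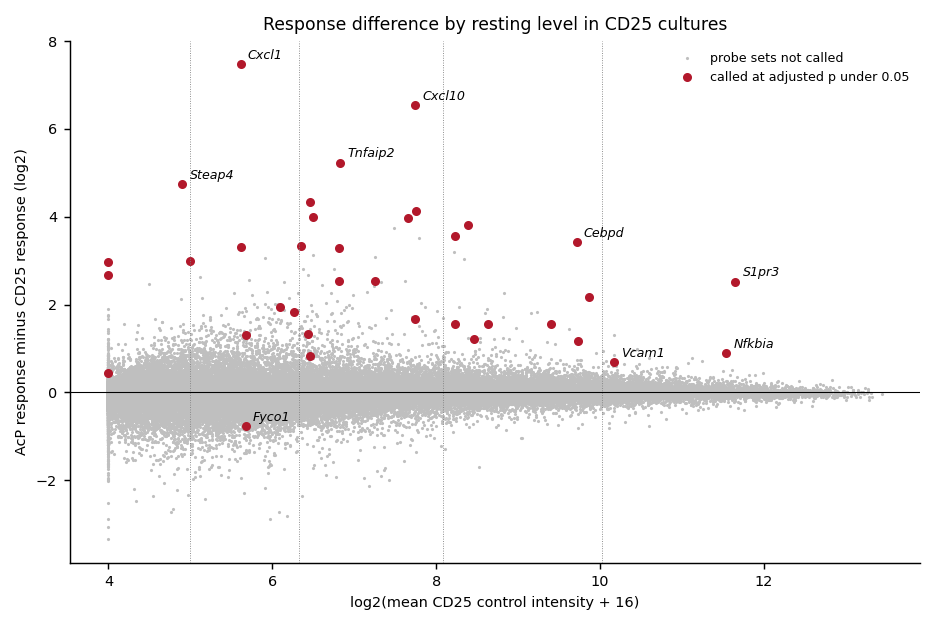
Response difference (log2 units, vertical) against the resting level in CD25 cultures (log2 of the mean CD25 control intensity plus 16, horizontal) for all probe sets, with the 36 called ones in red and dotted lines at the borders of the 5 classes. Called probe sets appear at every level, from Tnfaip2 (1416273_at) at a CD25 control mean of -22.0, drawn at 0 units, to S1pr3 at 3195, and the grey cloud narrows to the right. The CD25 control level is itself a term of the difference.

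The study's other arms were the AcPb arm, which expressed AcPb, the neuronal isoform of AcP, and the AcP+AcPb arm, which expressed both. Their controls enter no term of the response difference but are set here against the same CD25 control arrays. Cebpd averaged 68.2 in AcP controls, 76.9 in AcPb controls and 157 in AcP+AcPb controls, against 823 in CD25 controls. S1pr3 averaged 263 in AcP controls, 437 in AcPb controls and 472 in AcP+AcPb controls, against 3195 in CD25 controls. For both genes the CD25 controls were the highest of the 4. Cxcl10 averaged 13.5 in AcP controls, 12.5 in AcPb controls and 54.3 in AcP+AcPb controls, against 199 in CD25 controls. Ccl2 averaged 60.3 in AcP controls, 62.3 in AcPb controls and 73.6 in AcP+AcPb controls, against 65.9 in CD25 controls, and so lay at a like level in all 4.

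**Figure D5:**
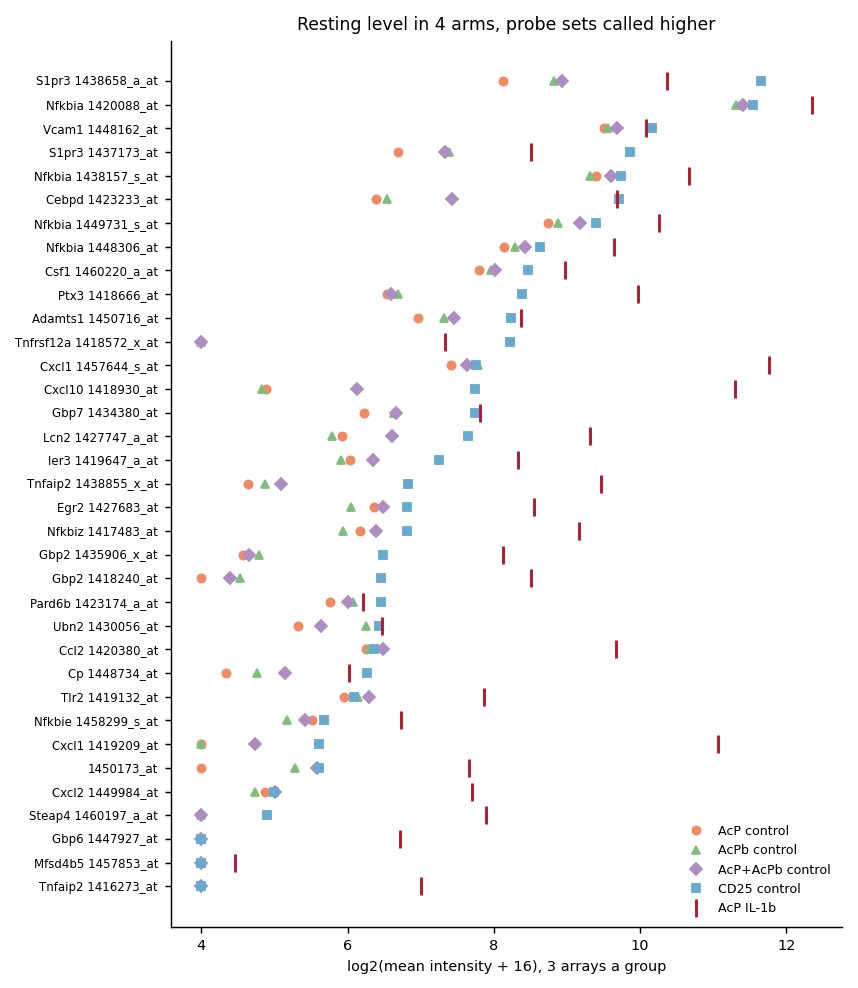
Resting level (log2 of the mean intensity of 3 arrays plus 16, horizontal) of the 35 probe sets with a higher response, in AcP, AcPb and AcP+AcPb controls and in CD25 controls, with AcP IL-1b as a red bar. The CD25 square lies to the right of the other 3 arms for Cebpd, S1pr3 and Cxcl10 and among them for Ccl2, and the red bar of S1pr3 stays left of its square.

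Markers of other cell types also differed between the resting arms. Of 11 progenitor and dividing cell markers, 6 were called lower in AcP controls and 0 higher (3.3% and 2.06% of all genes). Their summed intensity was 8111 to 8856 units in AcP controls and 13862 to 14985 in CD25 controls. Vim, an intermediate filament of glia and progenitors, averaged 3075 in AcP controls and 6567 in CD25 controls. Of 16 endothelial, mural and fibroblast markers 4 were called lower and 0 higher, but the list's median resting difference was 0.06 log2 units. Tagln, a smooth muscle protein with the largest resting difference of that list, averaged 70.3 in AcP controls and 1140 in CD25 controls. Dcn of the same list went the other way, at 161 in AcP controls and 113 in CD25 controls, and was not called. The astrocyte filament Gfap had 424, 340 and 682 units in AcP controls and 2379, 1279 and 2149 in CD25 controls, while the 12 astrocyte markers, 1 of them called higher and 2 lower, summed to 28649 to 30629 units in AcP controls and 25000 to 31082 in CD25 controls. Of 10 oligodendrocyte lineage markers 1, Olig1, was called higher, and of 13 microglia and macrophage markers 1, Ptprc. The 13 summed to 585 to 842 units in AcP controls and 626 to 856 in CD25 controls. Aif1, Cx3cr1 and C1qa had means below 0 in both control groups, and the other members had means above 0. Csf1r averaged 414 in AcP controls and 558 in CD25 controls, and C1qb 61.4 in AcP controls and 73.3 in CD25 controls. No marker of the 6 lists was called in the response difference, where 0.148% of all genes were called higher and 0.0055% lower. The list medians of that difference ran from -0.19 to 0.04. In RNA of whole cultures, fewer cells of a type and less RNA per cell cannot be told apart, and the part of cell makeup in the resting differences was not tested.

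A lower response in AcP was called for 1 probe set. Fyco1, an adaptor of vesicle transport, had 27.4, 24.6 and 30.9 units in AcP IL-1b and 48.4, 53.0 and 48.6 in AcP controls, against 43.2, 39.4 and 41.5 in CD25 IL-1b and 33.6, 33.5 and 38.1 in CD25 controls. The order was the reverse of that of Cxcl10, with AcP controls highest and AcP IL-1b lowest (-0.77 ± 0.08, limma adjusted p = 0.016). The Fyco1 call was lost in 9 of 22 alternative settings, with limma adjusted p up to 0.099 and differences of -0.88 to -0.41. Its other probe set was not called (-0.47 ± 0.39, limma adjusted p = 0.91). The next lower genes by p, none of them called, were Abhd2, a lipase (-0.77 ± 0.11, limma adjusted p = 0.093), Pou3f2, a neural transcription factor (-0.24 ± 0.04, adjusted p = 0.1), Clec2h (-0.55 ± 0.08, adjusted p = 0.11) and Rell1 (-1.16 ± 0.18, adjusted p = 0.11). Abhd2 had 1500, 1554 and 1583 units in AcP IL-1b and 2353, 2118 and 1924 in AcP controls, against 2003, 1722 and 2019 in CD25 IL-1b and 1480, 1549 and 1567 in CD25 controls.

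Receptor and proximal signalling genes gave no call in the difference, with 0 of 14 IL-1 receptor family genes and 0 of 23 genes from Myd88 to the kinase Tak1. Of all genes 0.148% were called higher and 0.0055% lower, so 0 calls in a list of this size is near that share. Both Il1r1 probe sets averaged below 0 in all 4 groups. Il1r2, the decoy receptor, averaged 8.65 units in AcP IL-1b and 11.6 in AcP controls, against 47.9 in CD25 IL-1b and 52.0 in CD25 controls (-0.10 ± 0.57, interval -1.40 to 1.19). Il2ra, the gene of CD25, averaged 29.7 in AcP IL-1b and 25.4 in AcP controls, against 31.2 in CD25 IL-1b and 37.7 in CD25 controls on 1 probe set. On another, 1420692_at, it averaged 28.4 in AcP IL-1b and 21.7 in AcP controls, against 25.5 in CD25 IL-1b and 15.7 in CD25 controls, and where its probes lie relative to the introduced sequence is not known here, so Il2ra checks no label. None of 14 prostaglandin and nitric oxide genes was called (beside 0.148% of all genes). Among them Ptgs2, the inducible cyclooxygenase, stood at 0.63 ± 0.48 (interval -0.47 to 1.72). Of 22 adhesion and proteolysis genes 2 were called higher, Vcam1 and Adamts1 (beside 0.148% of all genes). Icam1, which binds leukocyte integrins, just missed the threshold at 3.53 ± 0.47 (limma adjusted p = 0.053). It had 269, 333 and 220 units in AcP IL-1b and 22.1, -11.5 and 26.8 in AcP controls, against 149, 186 and 176 in CD25 IL-1b and 204, 197 and 217 in CD25 controls. Among 19 Notch pathway genes 0 were called (beside 0.148% of all genes called higher and 0.0055% lower), with a median of -0.15. Nrarp, a Notch feedback gene, stood at -0.57 ± 0.10 (limma adjusted p = 0.23).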

How the data were processed

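RNA of 24 samples, 3 in each of 8 groups, was hybridised to 1-colour Affymetrix arrays, and the 12 arrays of the AcP and CD25 arms entered the fit. Per the labels' protocols, RNeasy columns were used for RNA and Eberwine amplification for the biotin label. The deposited values are linear probe set intensities. The authors' summary and scaling steps are not given in the sources read for this work. Values ran from -1524.59 to 13068.67, no detection calls were used, and precision is limited by the number of arrays.

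The 40 control probe sets were left out. Of the 45037 others, 34945 had 1 gene symbol in the platform's annotation, 932 several and 9160 none. RefSeq names (GRCm38.p6) matched 34741 and changed 0. Negative values were set to 0, 16 was added and log2 was taken, so changes of dim genes are understated. The log2 values were fitted with limma 3.58.1 in R 4.3.3 (lmFit and eBayes, 4 group means, 8 residual and 0.62 prior degrees of freedom). The response difference was the interaction of stimulus and arm. P-values are two-sided, adjusted by Benjamini-Hochberg over all 45037 probe sets, and called under 0.05. Intervals are 95% intervals of that fit and are not adjusted.

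Named were up to 24 called genes with the largest positive and 10 with the most negative differences, the 5 lower genes of smallest p where fewer than 5 were called, the 8 called genes with the largest resting differences, up to 4 members of each list, and Il1rap, Il2ra, Il1r1, Il1r2, Il1rn and Cebpd. Pard6b, Vcam1, Mfsd4b5, 1450173_at and second probe sets are outside this rule and are named because they were called. A list member was counted as called if any of its probe sets was, and medians were taken over each gene's brightest probe set. The comparison, its members and the lists were chosen with earlier results of these data known. Alternatives changed the floor, the normalization, the filter, the samples and the variance model.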

Additional observations from a re-analysis of the deposited data

Results flagged for a closer look

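The response to IL-1b differed between the AcP and CD25 arms for 36 probe sets by limma's interaction test, with 35 responses higher in AcP and 1, that of Fyco1, lower. Every group had 3 arrays, too few for a search for single outlying arrays.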

How the results depend on the processing

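The 36 calls of the response difference were 33 to 47 under another floor, added constant, normalization, dim filter, intensity trend or array weighting, but 56 with all 24 arrays in the fit, and 23 to 180 with 1 array left out. Of the 36, 14 were called under every alternative run on them, 9 were lost in 1 to 5 alternatives and 13 in more than 5, and 0 changed sign. The 14 were probe sets of Ccl2, Cxcl1 (2), Cxcl10, Gbp2 (2), Gbp7, Nfkbia (2), Nfkbiz, S1pr3, Tlr2, Tnfaip2 and 1450173_at. Of the 13, Pard6b lost its call in 18 of 22 alternatives and S1pr3 1437173_at in 16 of 22. Ubn2 lost it in 15 of 22 and Mfsd4b5 in 14 of 21. Egr2 and Nfkbia 1420088_at lost it in 13 of 23, Csf1 in 12, Vcam1 in 11 and Lcn2 in 10. Cebpd lost it in 8 of 23, Ptx3 in 7 of 23, Fyco1 in 9 of 22 and Nfkbia 1449731_s_at in 6 of 22. The 62 calls of the AcP response became 110 with all 24 arrays, and 52 to 221 with 1 array left out. The 0 calls of the CD25 response became 2 with a hard floor at 32, 1 with quantile normalization, 1 with array medians centred, 1 with array weights, 4 with all 24 arrays and 0 to 13 with 1 array left out. The 1581 resting calls became 960 with array medians centred, 3185 with all 24 arrays and 760 to 3344 with 1 array left out, and with a generalised log 270 were higher and 827 lower. The 1104 stimulated calls became 686 with the generalised log, 532 with medians centred, 1869 with array weights, 2470 with all 24 arrays and 474 to 1425 with 1 array left out. Centring moved the median difference of all probe sets by 0.053 log2 units. Grouped by AcP controls, the 5 classes of resting level, from the lowest, held 13, 9, 7, 5 and 1 of the 35 higher calls, and by AcPb controls 12, 10, 7, 5 and 1. The causes of these changes were not tested.

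Whether same-numbered arrays belong together is not stated. Of 18 same-numbered pairs, 2 had deviations from their group means that correlated above 0.1 (-0.077 to 0.151). The CD25 IL-1b and CD25 control pairs stood at 0.151, 0.054 and 0.05. With 3 arrays in a group such correlations cannot settle the pairing. With the replicate number as a replicate block, 16 probe sets were called in the response difference, all 16 among the 36, and 34 in the AcP response.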
